A study of Mus musculus with 20 samples.

Results

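NF-κB is a family of dimeric transcription factors, and the genes described here are its 5 subunits (Nfkb1, Nfkb2, Rel, Rela and Relb) and 5 genes that restrain or modulate it (Nfkbia, Nfkbie, Nfkbiz, Tnfaip3 and Bcl3). They were taken by symbol from the deposited expression table and make up 10 of its 25219 genes. RNA from inguinal white (iWAT) and brown (BAT) adipose tissue of male mice was sequenced with 5 libraries for each genotype and tissue, 20 in all. Ai-α4KO mice carry floxed alleles of Igbp1, which encodes the phosphatase-binding protein α4, and an Adiponectin promoter-driven, tamoxifen-inducible Cre (Adiponectin-CreERT2), so that the gene is lost in adipocytes and not in the other cells of the tissue. Control mice carried the floxed alleles without the Cre transgene according to the methods of the study, while the labels call them WT. Both genotypes received tamoxifen at 100 mg/kg in 5 injections over 6 days, starting at 2 months of age, and tissue was taken 1 week after recombination. The labels do not say whether iWAT and BAT came from the same mice, or whether each library is a single mouse, so p-values measure the spread between these libraries.

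In resting cells NF-κB dimers are held in the cytoplasm by IκB proteins. Receptors for cytokines and microbial products activate the IκB kinase complex, the IκB is degraded, and the dimers enter the nucleus and bind κB sites beside their target genes. Several of those targets encode inhibitors of the same pathway, which is the textbook example of negative feedback in inflammation. Rela, Rel and Relb carry activation domains, whereas Nfkb1 and Nfkb2 encode precursors that are processed to DNA-binding subunits without such a domain. Nfkbia (IκBα) and Nfkbie (IκBε) encode cytoplasmic inhibitors, Tnfaip3 encodes a ubiquitin-editing enzyme that acts on the signalling complexes, and Nfkbiz (IκBζ) and Bcl3 encode nuclear IκB proteins that can raise or lower transcription. In adipose tissue, macrophages and other immune cells use this pathway as well as adipocytes, and in bulk RNA fewer cells of a type and less RNA per cell cannot be told apart.

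The stretches before the start sites of the members are shown because members of this pathway are known as targets of NF-κB, and the letters of the κB consensus can be looked for there. RefSeq promoters of GRCm38.p6 were at hand for 7 of the 10 members, without Nfkb1, Relb and Nfkbiz. The κB consensus, 10 bases long, was searched on both strands in the 250 bases before the start site, and its matches are in capitals. Bases that the annotation gives as untranslated region are left out, except in Nfkb2, whose window lies within an exon and untranslated region of another of its transcripts and is shown only as the matches with a few flanking bases. Each sequence is on the strand of its gene.
Nfkb2, chr19:46304693-46304713, plus strand: gtcacGGGAATTCCCCccctc
Nfkb2, chr19:46304721-46304736, plus strand: cgaaaGGGGCTTTCCc
Rel, chr11:23770971-23771119, minus strand: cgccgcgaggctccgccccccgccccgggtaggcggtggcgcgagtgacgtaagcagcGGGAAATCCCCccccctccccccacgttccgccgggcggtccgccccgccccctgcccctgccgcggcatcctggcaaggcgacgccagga
Nfkbia, chr12:55492648-55492797, minus strand: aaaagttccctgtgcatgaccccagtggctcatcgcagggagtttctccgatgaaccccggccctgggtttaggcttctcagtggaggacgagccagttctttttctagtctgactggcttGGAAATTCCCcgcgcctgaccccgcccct
Nfkbie, chr17:45555550-45555699, plus strand: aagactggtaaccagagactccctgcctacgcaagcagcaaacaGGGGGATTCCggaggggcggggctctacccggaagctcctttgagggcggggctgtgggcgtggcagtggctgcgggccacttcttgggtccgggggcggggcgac
Tnfaip3, chr10:19015411-19015547, minus strand: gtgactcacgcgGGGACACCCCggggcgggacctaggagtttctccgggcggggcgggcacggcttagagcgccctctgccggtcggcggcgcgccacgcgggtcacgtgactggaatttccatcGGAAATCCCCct

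Matches were found before 5 of these 7 members, and 7.01% of the 27025 genes in the promoter table held at least 1 match in a window of the same length. Counted back from the base before the start site, they lay at -39 to -29 and -11 to -2 in Nfkb2, -92 to -82 in Rel, -29 to -20 in Nfkbia, -106 to -97 in Nfkbie, and -125 to -116 and -12 to -3 in Tnfaip3. The stretches in Nfkb2 at -39 and in Rel hold overlapping matches 1 base apart, and the match at -125 in Tnfaip3 reads as the consensus on both strands. No match was found in the window of Rela or Bcl3. Part of each of these windows is annotated as exon of the gene, and the Rela start site used lies 51 bases inside the deposited gene. A match is a string of letters and was not tested for binding.

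Libraries held between 24023371 and 50384446 counts, and the members had between 35 and 6622 counts in a library. The deleted gene, Igbp1, was at 67.2 ± 7.01 CPM in Control iWAT against 10.8 ± 0.394 CPM in knockout iWAT, and at 93.9 ± 7.29 against 17 ± 4.83 CPM in BAT (SD, n = 5 each). The edgeR adjusted p was 4.99e-08 in iWAT and 2.20e-07 in BAT. CPM here is the count relative to the library's TMM-normalized total. The labelled tissues carried their markers, since the summed level of 6 brown adipocyte genes was 7902 to 12170 CPM in Control BAT and 126 to 940 CPM in Control iWAT. Libraries 1 and 4 of Control iWAT stood apart, with 541 and 210 CPM summed over 8 B cell markers against 6.71 to 8.62 in the other Control iWAT libraries, and with 257 and 275 CPM of T cell markers against 12 to 15.1. Library 4 also held 6648 CPM of skeletal muscle markers, against 15.7 to 171 in the other Control iWAT libraries, and Ai-α4KO iWAT library 1 held 5280 CPM, against 4.32 to 109 in the others of its group. Values of the members in iWAT are therefore also given without Control iWAT libraries 1 and 4 where that changes a call. For the pathway lists this is done for some genes only.

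The words rose and fell are kept for genes with at least a 2-fold change and an adjusted p below 0.01 in the quasi-likelihood test of edgeR, adjusted by Benjamini-Hochberg over all genes tested. In iWAT 5 of the 10 members rose and 0 fell, where 11.3% of the 14604 genes tested rose and 10.7% fell. In BAT also 5 rose and 0 fell, where 18.2% of the 14344 genes tested rose and 13.3% fell. They were Nfkb2, Rel, Nfkbie, Tnfaip3 and Bcl3 in each tissue. The median log2 fold change of the 10 members was 1.12 in iWAT and 0.90 in BAT, beside 0.01 and -0.03 over all genes. By adjusted p without the fold threshold 8 members were higher in iWAT and 7 in BAT, beside 21.5% and 25.0% of the genes tested, and 0 were lower, beside 18.8% and 24.8%. Every Ai-α4KO library was above every Control library for 6 members in each tissue, as it was for 20.7% of all genes in iWAT and 24.7% in BAT.

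**Figure D1:**
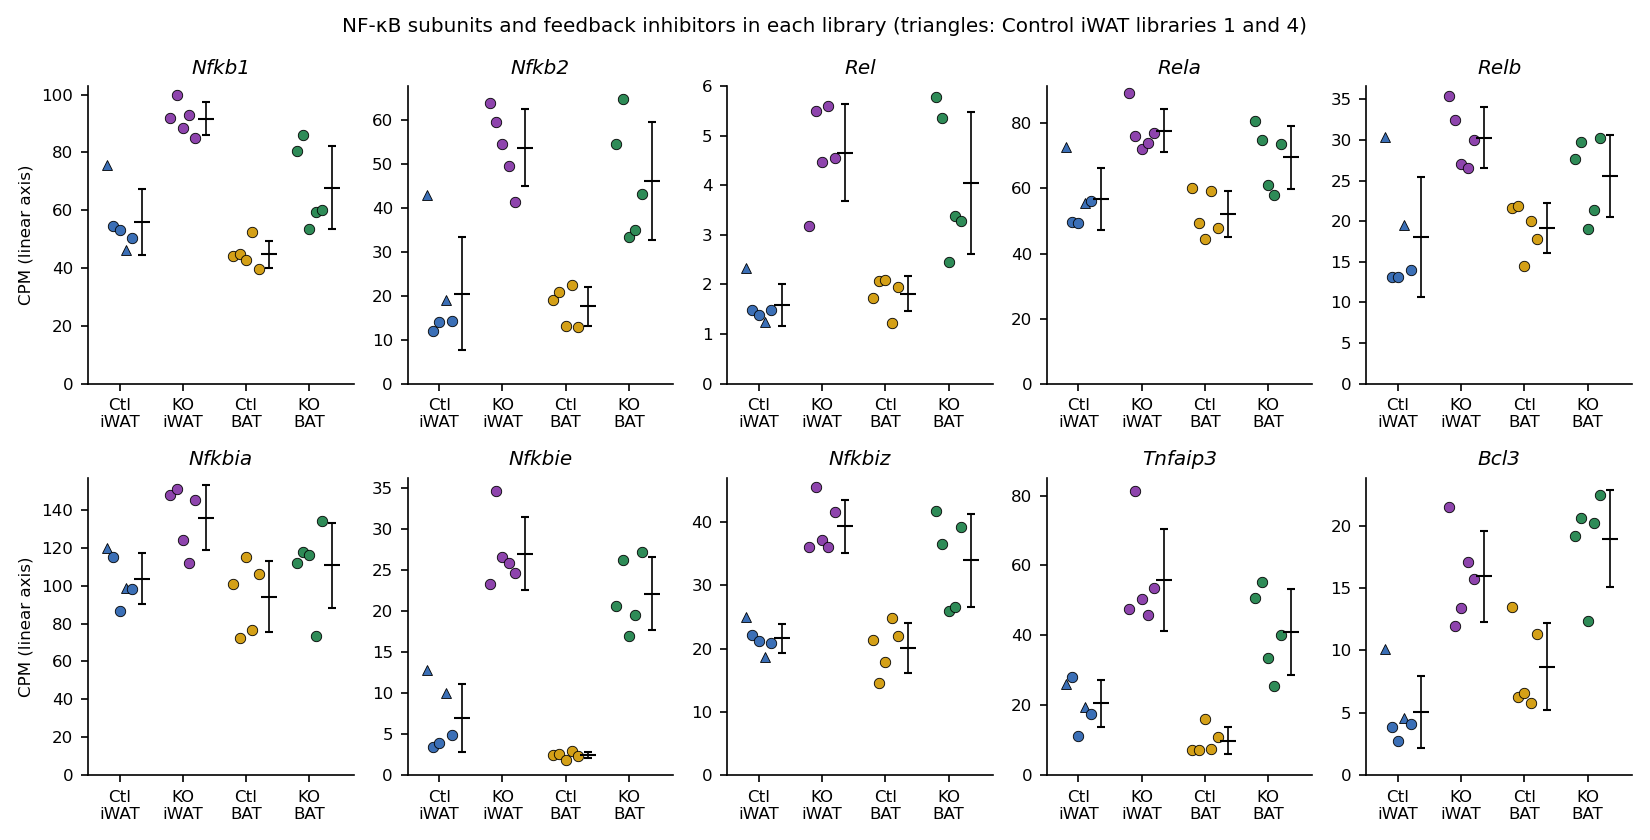
CPM of each member (linear axis from 0) in the 20 libraries by group, 5 libraries each, with the mean and SD beside the points and triangles for Control iWAT libraries 1 and 4. Nfkbie and Tnfaip3 rise clear of Control in both tissues, while the groups of Nfkbia overlap in both.

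Among the subunits, Nfkb2 (Entrez 18034, chr19:46304737-46312090, plus strand, mm10), the precursor of the non-canonical arm, was at 42.9, 11.9, 14, 18.9 and 14.3 CPM in the Control iWAT libraries and at 63.8, 59.5, 54.4, 49.4 and 41.2 CPM in the Ai-α4KO iWAT libraries. Control library 1 alone lay above the lowest Ai-α4KO library, and the other 4 were well below. The rise was 2.61-fold (log2 1.39, standard error 0.33, adjusted p = 0.004). It missed the threshold by a narrow margin without Control iWAT library 3, 4 or 5 (adjusted p = 0.0116, 0.0101 and 0.0116), and without libraries 1 and 4 together it was log2 1.92 (adjusted p = 2.42e-05). In BAT the Control libraries held 18.9, 20.7, 13, 22.3 and 12.8 CPM and the Ai-α4KO libraries 54.5, 64.8, 33.4, 34.8 and 43 CPM. Those groups did not overlap, and the rise was 2.57-fold (log2 1.36, standard error 0.22, adjusted p = 0.000185).

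Rel (Entrez 19696, chr11:23741729-23770970, minus strand), best known from lymphocytes and myeloid cells, was the member at the lowest level. It was at 2.33, 1.49, 1.39, 1.24 and 1.49 CPM in Control iWAT and at 3.17, 5.49, 4.46, 5.6 and 4.54 CPM in Ai-α4KO iWAT. Every Ai-α4KO library exceeded every Control library, with a 2.9-fold rise (log2 1.54, standard error 0.24, adjusted p = 0.000248). The BAT values were 1.73, 2.07, 2.08, 1.23 and 1.95 CPM in Control and 5.77, 5.35, 2.46, 3.38 and 3.27 CPM in Ai-α4KO libraries. The groups were again apart, and Ai-α4KO libraries 1 and 2 were the highest. The 2.18-fold rise (log2 1.12, standard error 0.27, adjusted p = 0.00316) fell under the fold threshold without Ai-α4KO BAT library 1 (log2 0.97), and with the score of skeletal muscle markers in the model the adjusted p was 0.0195 at log2 1.29.

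Rela (Entrez 19697, chr19:5637490-5648130, plus strand), the main activating subunit of the canonical arm, was not counted as changed in either tissue. Its log2 fold change was 0.45 in iWAT (standard error 0.12, adjusted p = 0.00757, 1.37-fold) and 0.38 in BAT (standard error 0.13, adjusted p = 0.0194, 1.3-fold). Control iWAT ranged from 49.3 to 72.7 CPM with a median of 55.4, and Ai-α4KO iWAT from 72.3 to 89.3 with a median of 76, so that the ranges met only through Control library 1 at 72.7 CPM. In BAT the ranges were 44.6 to 60.1 and 57.9 to 80.7 CPM and overlapped.

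Nfkb1 (Entrez 18033, chr3:135584655-135691547, minus strand), the precursor of the canonical arm, was at 75.7, 54.7, 53.3, 46.4 and 50.3 CPM in Control iWAT and at 92.1, 100, 88.6, 93.1 and 84.9 CPM in Ai-α4KO iWAT. In BAT it was at 44.1, 44.7, 42.9, 52.5 and 39.6 CPM in Control and at 80.4, 86.2, 53.4, 59.3 and 60 CPM in Ai-α4KO libraries. The genotypes did not overlap in either tissue and the adjusted p passed, yet the folds were under 2 at 1.63 in iWAT (log2 0.70, standard error 0.13, adjusted p = 0.00079) and 1.48 in BAT (log2 0.56, standard error 0.14, adjusted p = 0.00439).

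Relb (Entrez 19698, chr7:19606222-19629438, minus strand), the usual partner of the processed Nfkb2 product, was at 30.4, 13.1, 13.1, 19.5 and 14 CPM in Control iWAT and at 35.4, 32.4, 27, 26.5 and 30 CPM in Ai-α4KO iWAT. Control libraries 1 and 4 were the highest of their group. The log2 fold change was 0.74 (standard error 0.23, adjusted p = 0.0188) with all libraries. Without Control iWAT libraries 1 and 4 it was 1.09 (adjusted p = 0.00015), which passed both thresholds, as it did with the B cell score added as a covariate (log2 1.15, adjusted p = 0.000113). In BAT the ranges of 14.5 to 21.9 and 19 to 30.2 CPM overlapped, and the log2 fold change was 0.38 (standard error 0.16, adjusted p = 0.0544).

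Of the inhibitors, Nfkbie (Entrez 18037, chr17:45555700-45563168, plus strand) had the largest fold among the members in both tissues. In iWAT it was at 12.8, 3.42, 3.94, 10 and 4.92 CPM in Control and at 23.3, 34.7, 26.6, 25.9 and 24.7 CPM in Ai-α4KO libraries. Control libraries 1 and 4 were again the highest of their group, and all Control libraries stayed below all Ai-α4KO libraries. The rise was 3.82-fold (log2 1.93, standard error 0.35, adjusted p = 0.000782), and log2 2.64 without those 2 libraries (adjusted p = 1.07e-05). In BAT it was at 2.46, 2.62, 1.86, 2.96 and 2.31 CPM in Control and at 20.7, 26.3, 17, 19.6 and 27.2 CPM in Ai-α4KO libraries. This 8.83-fold rise (log2 3.14, standard error 0.19, adjusted p = 1.03e-07) started from a low and even Control level of 2.44 ± 0.407 CPM and ended at 22.2 ± 4.4 CPM, beside 27.1 ± 4.45 CPM in Ai-α4KO iWAT (SD, n = 5).

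Nfkbia (Entrez 18035, chr12:55489409-55492647, minus strand), the classical inhibitor that is rapidly resynthesized after its degradation, did not pass in either tissue. It was at 120, 115, 86.6, 98.7 and 98.4 CPM in Control iWAT and at 148, 151, 124, 112 and 145 CPM in Ai-α4KO iWAT (log2 0.39, standard error 0.12, adjusted p = 0.0208). In BAT the values were 101, 72.6, 115, 76.6 and 106 CPM in Control and 112, 118, 116, 73.3 and 134 CPM in Ai-α4KO libraries (log2 0.19, standard error 0.18, adjusted p = 0.37). The genotypes overlapped in both tissues for this gene, whose promoter stretch holds a κB match.

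Tnfaip3 (Entrez 21929, chr10:19000910-19015410, minus strand) was at 26, 28, 11.2, 19.6 and 17.6 CPM in Control iWAT and at 47.5, 81.4, 50.4, 45.9 and 53.6 CPM in Ai-α4KO iWAT. The groups were apart, with Ai-α4KO library 2 far above the other 4, and the rise was 2.71-fold (log2 1.44, standard error 0.25, adjusted p = 0.000512). In BAT it was at 7.1, 7.08, 16, 7.55 and 11 CPM in Control and at 50.7, 55.3, 33.4, 25.4 and 40.2 CPM in Ai-α4KO libraries, a 4.1-fold rise without overlap (log2 2.03, standard error 0.28, adjusted p = 5.49e-05).

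The nuclear IκB gene Bcl3 (Entrez 12051, chr7:19808462-19822755, minus strand) was at 10.1, 3.85, 2.74, 4.6 and 4.1 CPM in Control iWAT and at 21.5, 12, 13.4, 17.1 and 15.7 CPM in Ai-α4KO iWAT. Control library 1 was the highest of its group but below every Ai-α4KO library, and the rise was 3.12-fold (log2 1.64, standard error 0.33, adjusted p = 0.00144). In BAT the values were 13.5, 6.3, 6.57, 5.82 and 11.3 CPM in Control and 19.2, 20.6, 12.4, 20.2 and 22.5 CPM in Ai-α4KO libraries. Control library 1 there lay above the lowest Ai-α4KO library. The 2.13-fold rise (log2 1.09, standard error 0.26, adjusted p = 0.00302) fell just under the fold threshold without Control BAT library 2, 3 or 4 (log2 0.96 to 1.0).

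The other nuclear IκB gene, Nfkbiz (Entrez 80859, chr16:55811377-55838641, minus strand), which is needed for a subset of secondary targets such as Il6 and Lcn2, was at 25, 22.2, 21.2, 18.7 and 20.9 CPM in Control iWAT and at 36.1, 45.5, 37.2, 36.1 and 41.6 CPM in Ai-α4KO iWAT. In BAT it was at 21.4, 14.6, 17.8, 24.8 and 22 CPM in Control and at 41.8, 36.5, 25.9, 26.5 and 39.2 CPM in Ai-α4KO libraries. No library of one genotype reached the range of the other, and its adjusted p passed in both tissues, but the folds of 1.81 in iWAT (log2 0.86, standard error 0.10, adjusted p = 5.04e-05) and 1.64 in BAT (log2 0.72, standard error 0.18, adjusted p = 0.00456) were under 2.

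**Figure D2:**
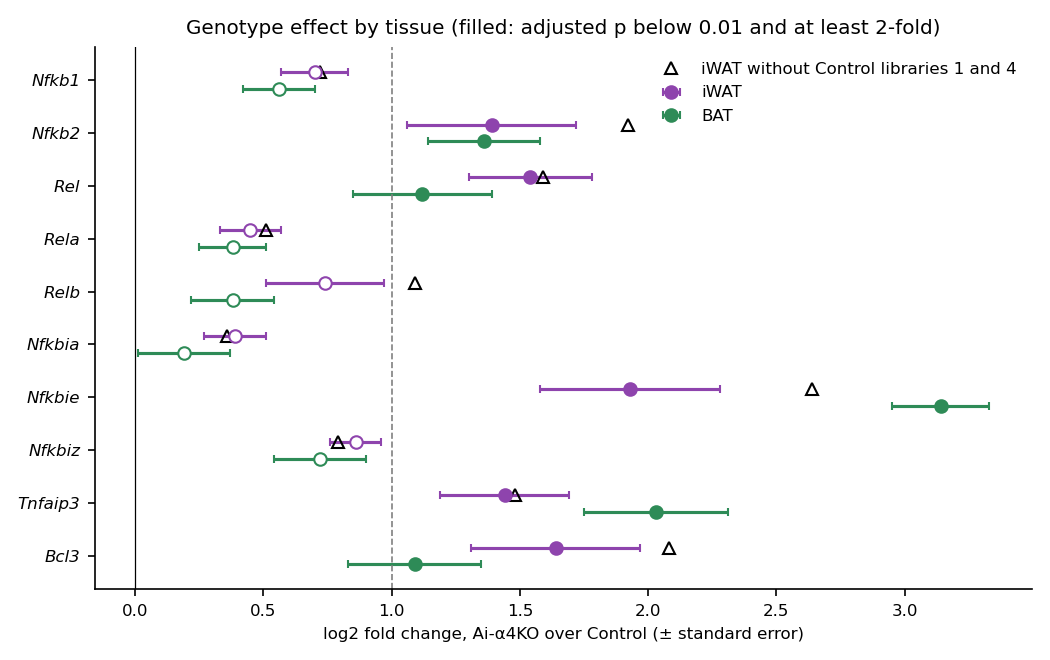
Log2 fold change of Ai-α4KO over Control with its standard error for each member, in iWAT (purple) and BAT (green), filled where both thresholds passed, with open triangles for iWAT without Control libraries 1 and 4 and a dashed line at 2-fold. Nfkbie has the largest value in each tissue (1.93 and 3.14), and the triangles of Nfkb2, Relb, Nfkbie and Bcl3 lie to the right of the values from all libraries.

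Levels of different genes were compared in the deposited FPKM, which are per transcript length. Nfkbia was the most abundant member in every group, from 46.4 ± 9.41 FPKM in Control BAT to 84.5 ± 11.1 in Ai-α4KO iWAT (SD, n = 5), and its libraries did not overlap those of the next member, Rela. Rel had the lowest mean in every group, from 0.543 ± 0.0954 FPKM in Control BAT to 1.76 ± 0.363 in Ai-α4KO iWAT. In Control iWAT the order between them was Rela (18.9 FPKM), Nfkb1 (12.3), Relb (7.46), Nfkb2 (5.66), Nfkbiz (5.01), Tnfaip3 (4.06), Nfkbie (2.64) and Bcl3 (2.54), and each of these overlapped its neighbour. In Control BAT the lower end ran from Bcl3 (3.7 FPKM) through Tnfaip3 (1.64) and Nfkbie (0.779) to Rel, and only Tnfaip3 and Nfkbie among these neighbours were apart in every library. In both knockout groups Nfkb2 stood above Relb by its mean, the reverse of the Control order, with overlapping libraries in all 4 groups.

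The makeup of the subunit mRNA, as the share of each in the summed FPKM of the 5 subunits, differed between the genotypes most in Rela and Nfkb2, counted in percentage points. In iWAT the Rela share was 42.9% ± 3.72 in Control and 34.7% ± 1.85 in knockout libraries, and in BAT 42.9% ± 2.08 and 37.4% ± 2.93 (SD, n = 5). The Rela shares overlapped narrowly in both tissues, with a Control minimum of 36.8% and a knockout maximum of 37% in iWAT, and of 39.6% and 40.9% in BAT. The Nfkb2 share was 11.7% ± 3.66 and 19.6% ± 2.05 in iWAT, and 11.7% ± 1.72 and 19.9% ± 2.2 in BAT. The Nfkb2 shares overlapped in iWAT, where Control reached 17.9% and Ai-α4KO began at 16.3%, and did not overlap in BAT. The Rel share, small throughout, was 1.25% ± 0.133 in Control and 2.2% ± 0.525 in knockout libraries of iWAT, a relative change about as large as that of Nfkb2 there, and 1.61% ± 0.463 and 2.21% ± 0.443 in BAT. The Rel shares overlapped in both tissues, with a Control maximum of 1.38% and a knockout minimum of 1.33% in iWAT, and of 2.11% and 1.72% in BAT. Nfkb1 was at 27.9% and 27% in iWAT and at 24.3% and 23.7% in BAT, and Relb at 16.2% and 16.6% in iWAT and at 19.4% and 16.8% in BAT. Within the inhibitors, the ratio of Nfkbie to Nfkbia FPKM had a median of 0.0324 in Control and 0.139 in knockout libraries of iWAT, and of 0.0157 and 0.131 in BAT. Its highest Control value in iWAT was 0.069 and its lowest Ai-α4KO value 0.102, so that the libraries did not overlap. These shares and ratios are descriptions without a test.

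**Figure D3:**
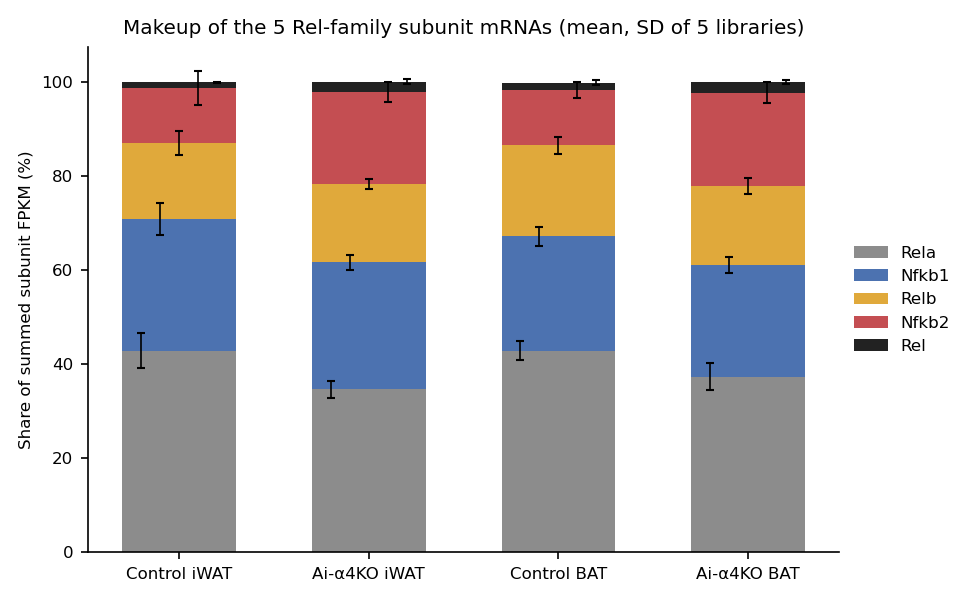
Mean share of each subunit in the summed FPKM of the 5 subunits (percent, stacked) for the 4 groups, with SD bars over 5 libraries at the top of each segment. The Nfkb2 segment is larger and the Rela segment smaller in the Ai-α4KO groups of both tissues, 19.6% and 19.9% against 11.7% and 11.7% for Nfkb2.

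An interaction term in the model of all 20 libraries asked whether the genotype effect differed between iWAT and BAT. None of the 10 members passed an adjusted p below 0.01 in edgeR's test, where 4.86% of the 15230 genes did. Nfkbie was closest, with a log2 fold change 1.24 larger in BAT (standard error 0.40, adjusted p = 0.0453 by edgeR), and it was the single member with an unadjusted p under 0.05. The same difference was 0.58 without Control iWAT libraries 1 and 4 (adjusted p = 0.164). DESeq2 also passed 0 members, where 10.8% of all genes passed, and gave Nfkbie an adjusted p of 0.0116. For Tnfaip3 the difference was 0.63 (standard error 0.38, adjusted p = 0.276).

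In Control mice 2 members were lower in BAT than in iWAT, where 15.4% of all genes were lower, and 0 were higher, where 7.34% were. Nfkbie was lower by log2 -1.53 (standard error 0.30, adjusted p = 0.000287) with all BAT libraries below all iWAT libraries, and Tnfaip3 by -1.07 (standard error 0.28, adjusted p = 0.00319) with overlapping libraries. Neither passed without Control iWAT libraries 1 and 4 (log2 -0.75 and -0.96), and Bcl3 was then higher in BAT (log2 1.28, adjusted p = 0.00234, against 0.77 with all libraries). Without Control iWAT library 1 alone Bcl3 was also higher (log2 1.19, adjusted p = 0.00137). The Tnfaip3 difference missed the threshold without Control iWAT library 1 or 2, or Control BAT library 1, 2 or 4 (log2 -0.99 to -0.94, edgeR adjusted p = 0.0102 to 0.0111). Between the Ai-α4KO tissues 0 members passed in either direction by edgeR or DESeq2, where 4.09% of genes were lower in BAT and 8.54% higher. At an unadjusted p under 0.05 there was 1, Nfkb1 (log2 -0.44, adjusted p = 0.0184 by edgeR).

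The rest of the pathway was followed with lists of upstream kinases and adaptors, other inhibitors and target genes. Of 27 upstream genes, 4 rose and 0 fell in iWAT, and 9 rose and 0 fell in BAT, with medians of log2 0.52 and 0.56, beside the 11.3% and 18.2% of all genes that rose in iWAT and BAT. Card9, Myd88, Birc3 and Ikbke rose in both tissues. Those that, in the fits of all libraries, rose in BAT without passing in iWAT included Traf1, Traf5, Map3k14 and Malt1. None of these passed the interaction test (edgeR adjusted p = 0.0288, 0.0195, 0.0774 and 0.0914). Card9, an adaptor of myeloid receptors, rose 4.91-fold in iWAT and 6.16-fold in BAT. Ikbke, which encodes an IKK-related kinase, was at 28.5, 17.6, 14, 26.8 and 16.4 CPM in Control iWAT and at 73.2, 72.7, 75.6, 54.6 and 47.7 CPM in Ai-α4KO iWAT. In BAT it was at 2.46, 2.7, 2.27, 3.77 and 2.15 CPM in Control and at 32.6, 36.2, 24.6, 26.3 and 47.3 CPM in Ai-α4KO libraries. Its rise was thus 3.12-fold in iWAT and 12.2-fold in BAT, and the difference of log2 1.99 passed the interaction test (adjusted p = 0.000758), but not with limma on log2(FPKM + 1), where it was 1.01 (adjusted p = 0.0276). The core kinase genes did not pass in either tissue, with log2 0.22 and -0.11 for Chuk, 0.44 and 0.56 for Ikbkb, and -0.09 and -0.31 for Ikbkg in iWAT and BAT. Without Control iWAT libraries 1 and 4 the count of upstream genes that rose in iWAT was 8, among them Traf1, at log2 2.75 against 1.07 with all libraries (1.71 without library 1 alone). Among the Control iWAT libraries Traf1 was highest in libraries 1 and 4, at 20.1 and 13 CPM against 2.08 to 2.59 CPM in the other 3. So were Traf5, at 12.8 and 15 against 4.82 to 8.44 CPM, and Map3k14, at 17.2 and 9.75 against 6.54 to 8.44 CPM. Malt1 was at 31.9 and 27.2 against 18.8 to 21.4 CPM.

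Of 17 other inhibitors, 3 rose and 0 fell in iWAT, and 4 rose and 0 fell in BAT, with medians of log2 0.57 and 0.52, again beside 11.3% and 18.2% of all genes that rose. Tnip3, a partner of the Tnfaip3 protein, rose 20.4-fold in iWAT and 33.5-fold in BAT (adjusted p = 2.18e-06 and 6.30e-07), from 1.45 ± 0.482 to 29.8 ± 8.87 CPM and from 0.436 ± 0.233 to 15.4 ± 5.71 CPM (SD, n = 5). Irak3, an inhibitor of Toll-like receptor signalling, rose 2.2-fold and 2.79-fold, and was under 2-fold in iWAT without Control iWAT libraries 1 and 4 (log2 0.93). Tnip2 rose in iWAT (2.01-fold, and under 2-fold in 5 of 10 fits with 1 library left out), and did not pass there in 3 of 13 other alternatives. In BAT it had log2 0.83 and passed in 4 of 12 alternatives. Pdlim2 (2.07-fold) and Nfkbid (17.4-fold) rose in BAT. Nfkbid, a nuclear IκB gene, had log2 1.29 in iWAT (adjusted p = 0.0703) with 8.35 and 7.52 CPM in Control libraries 1 and 4 against 0.901 to 1.82 in the other 3, and log2 2.76 without them (adjusted p = 4.61e-05). Cyld, the deubiquitinase that opposes IκB kinase activation, had log2 0.57 in iWAT and 0.31 in BAT and did not pass the fold threshold.

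Of the 32 target genes listed, 31 were tested and Ccl20 was too low. In iWAT 22 rose and 1 fell, in BAT 24 rose and 2 fell, beside 11.3% and 10.7% of all genes in iWAT and 18.2% and 13.3% in BAT. The pathway lists were chosen with earlier results of these data known, so their counts beside such shares are descriptions. The medians were log2 2.72 and 4.61 (4.28 in BAT with the 4 genes at the floor of 3 counts a library set to their bound). Il6 was between 0.0212 and 0.155 CPM in Control iWAT and between 16.9 and 63.9 in Ai-α4KO iWAT, and in BAT, where no Control library held more than 3 counts, it was at least 214-fold higher. Csf2 was at least 105-fold higher in iWAT and 27.2-fold in BAT, and Csf3 at least 104-fold and 13.5-fold. Lcn2 rose 30.9-fold in iWAT and 140-fold in BAT, and Cxcl1 rose by log2 8.30 and 7.74 (8.51 in BAT without Control BAT library 1). Nos2, the inducible nitric oxide synthase, fell in both tissues (log2 -2.36 in iWAT and -1.62 in BAT), and Bcl2l1, an anti-apoptotic gene, fell in BAT (log2 -1.23). With the muscle score in the model neither passed in BAT (log2 -1.47, adjusted p = 0.0154 for Nos2 and log2 -0.69, adjusted p = 0.0734 for Bcl2l1). With limma on log2(FPKM + 1) Nos2 was under 2-fold in both tissues (log2 -0.75 and -0.70), and in BAT Bcl2l1 was under 2-fold in both limma fits (log2 -0.88 and -0.93) and without TMM (log2 -0.96). Cxcl10 had a smaller rise in BAT (log2 4.61) than in iWAT (log2 7.38), a difference of -2.75 that passed the interaction test (adjusted p = 0.00627) but not with the limma fits (adjusted p = 0.0181 and 0.0442) without Control iWAT libraries 1 and 4 (adjusted p = 0.02), or in 15 of 20 fits with 1 library left out. Sod2, named after its values were seen, also passed with -1.0 (adjusted p = 0.00222), and did not without Control iWAT libraries 1 and 4 (-0.78, adjusted p = 0.0221).

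**Figure D4:**
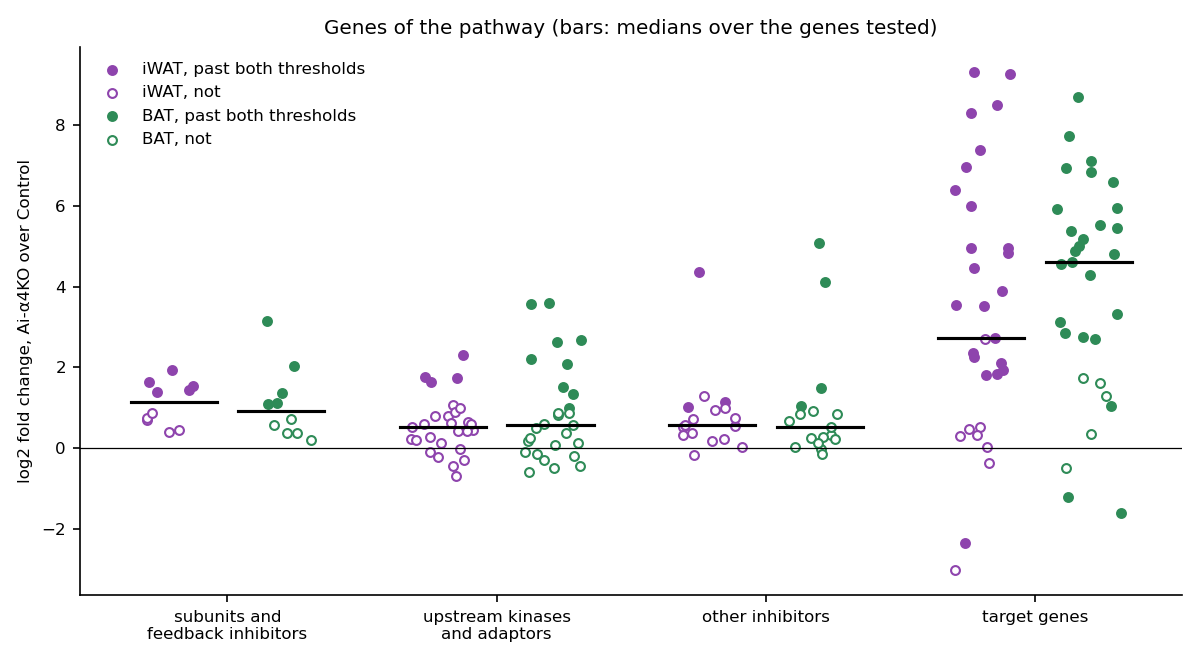
Log2 fold change of each gene tested in the member list and the 3 pathway lists, iWAT in purple and BAT in green, filled where both thresholds passed, with bars at the medians. The target genes reach the highest values (medians 2.72 and 4.61), and the members' medians are 1.12 and 0.90.

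Markers of several cell types moved with genotype beside these values. The summed level of 8 macrophage markers was 1097 to 1836 CPM in Control and 7170 to 9659 CPM in Ai-α4KO iWAT, with 7 of 8 higher, and 221 to 505 and 4096 to 6749 CPM in BAT, with 8 of 8 higher. Neutrophil markers (7 genes) summed to 19.9 to 118 and 146 to 494 CPM in iWAT, where 4 of 7 rose, and to 12.3 to 36.2 and 201 to 364 CPM in BAT, where 6 of 6 tested rose. T cell markers summed to 12 to 275 and 26.4 to 65.4 CPM in iWAT, where 0 of 8 rose, and to 3.31 to 6.63 and 19.2 to 66 CPM in BAT, where 5 of 7 tested rose. B cell markers summed to 6.71 to 541 and 8.99 to 16.6 CPM in iWAT, where 0 of 7 tested rose and 1 fell, and to 1.37 to 4.83 and 6.53 to 16.6 CPM in BAT, where 2 of 4 tested rose. Of 7 adipocyte markers 5 fell in each tissue, with sums of 20623 to 27780 and 11268 to 15801 CPM in iWAT and of 19621 to 22882 and 12542 to 14884 CPM in BAT. Brown adipocyte markers fell for 5 of 6 genes in iWAT and 2 of 6 in BAT, with sums of 126 to 940 and 17.1 to 42.7 CPM, and of 7902 to 12170 and 1525 to 3293 CPM. Endothelial markers fell for 2 of 5 genes in iWAT (353 to 484 and 213 to 256 CPM) and 3 of 5 in BAT (644 to 879 and 249 to 319 CPM). Stromal progenitor markers rose for 1 of 5 genes in iWAT (1230 to 2508 and 1073 to 2457 CPM) and 2 of 5 in BAT (388 to 662 and 922 to 1128 CPM). Skeletal muscle markers in BAT summed to 846 to 9159 CPM in Control and 12501 to 40427 CPM in Ai-α4KO libraries, with 6 of 8 higher. With the muscle score as a covariate Nfkb2, Nfkbie, Tnfaip3 and Bcl3 still passed in BAT and Rel did not. The muscle sums in BAT did not overlap between the genotypes, so this fit cannot separate muscle from genotype. The part of the marker lists in the members' values in BAT, and of all but the B cell list in iWAT, was not tested. Without Ai-α4KO iWAT library 1, 5 members rose in iWAT.

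**Figure D5:**
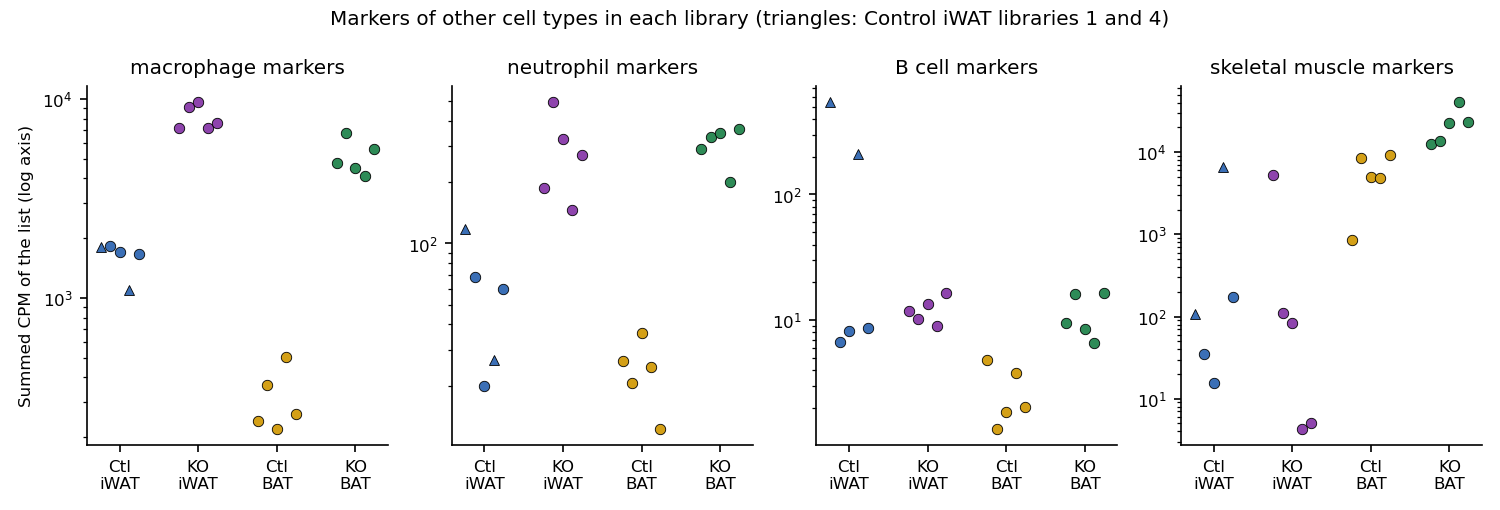
Summed CPM (log axis) of macrophage, neutrophil, B cell and skeletal muscle markers in each library of the 4 groups, with triangles for Control iWAT libraries 1 and 4. Macrophage sums of Ai-α4KO lie above those of Control in both tissues, and the 2 triangles stand at 541 and 210 CPM of B cell markers.

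The gene whose log2 CPM was most like that of each member over the 20 libraries was, by Pearson's r, Glipr1 for Nfkbie (0.987), Entpd3 for Tnfaip3 (0.961), Rab43 for Nfkb1 (0.953), Zbtb42 for Nfkbiz (0.95), Chl1 for Rel (0.948), H2-K2 for Nfkb2 (0.943), Bax for Rela (0.933), Sept9 for Bcl3 (0.912), Ppp4c for Relb (0.888) and Nr2c2ap for Nfkbia (0.803). The libraries share the 4 groups, so these values hold the group differences, and they are a description. With the group means removed, r of the same 10 pairs lay between 0.707 and 0.91, and the order could change. For Relb, Tmem86b then had 0.892 against 0.782 for Ppp4c, and for Nfkbia, Irf2bp2 had 0.745 against 0.707 for Nr2c2ap. For Nfkbiz, Ppap2c had 0.804 against 0.769 for Zbtb42, and for Nfkb1, Gnpda1 had 0.83 against 0.826 for Rab43. These genes were named after their values were seen. With the group means removed, r was computed only for the 3 genes most like each member over all libraries.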

How the data were processed

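RNA was sequenced from TruSeq stranded mRNA libraries of iWAT and BAT. For every gene the table deposited by the authors gives an expected count per library, not normalized, and an FPKM value, the count scaled by transcript width and by 1 total per library. Of the nonzero expected counts, 76.7% are whole (tolerance 1e-6). The submitters' processing notes name bcl2fastq 2, STAR 2.5.3a and mm10. The counting tool is not given in the sources used here. The members and lists were chosen with earlier results of these data known. Counts were rounded, filtered by filterByExpr, normalized by TMM and fitted with edgeR 4.0.16 in R 4.3.3, within each tissue for genotype and over all 20 libraries for the interaction and the tissue contrasts. Genes named are all members, the 3 pathway genes of each list that passed and changed most, up or down, in a tissue, genes of textbook role, the gene most like each member, and Igbp1. Cxcl10 and Sod2, which passed the interaction test, and Tmem86b, Irf2bp2, Ppap2c and Gnpda1 fall outside this rule and were named after their values were seen. Of the genes the rule names, 1 is not reported here. Log2 CPM used a prior count of 2. Alternatives were DESeq2 1.42.0, other normalizations and filters, limma 3.58.1 on log2(FPKM + 1) and log2(FPKM + 0.1), a replicate block, each library left out, Control iWAT libraries 1 and 4 left out, and marker scores as covariates. On simulated counts edgeR recovered 78 of 103 genes changed by log2 1.5 and 85 of 97 changed by log2 2 in iWAT (14345 genes), and 98 of 106 and 90 of 94 in BAT (13691 genes), with 0 and 2 false calls. Those calls used the adjusted p without the fold threshold, and far fewer genes were changed than in the data. The rates are therefore not those of the calls reported here. Depth sets the floor at 3 counts a library, which covers counting error only. Adgre1 and Ly6g were not matched in the table. Promoter sequences are from RefSeq, GRCm38.p6, and motif matches were sought in 250 bases.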

Additional observations from a re-analysis of the deposited data

Results flagged for a closer look

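In 7 of the 40 groups of 5 libraries (10 members, 4 groups), the highest library stood apart from the other 4 by Dixon's test, where chance gives about 1 in 20. Of these, 4 were Control iWAT library 1, with 75.7 CPM of Nfkb1, 42.9 CPM of Nfkb2, 2.33 CPM of Rel and 10.1 CPM of Bcl3. This library also held the highest sum of B cell markers (541 CPM). With the B cell score as a covariate the log2 fold changes in iWAT were 0.80 for Nfkb1, 1.98 for Nfkb2, 1.66 for Rel and 2.16 for Bcl3, beside 0.70, 1.39, 1.54 and 1.64 without it. Ai-α4KO iWAT library 2 was set apart by 34.7 CPM of Nfkbie and 81.4 CPM of Tnfaip3, and Ai-α4KO iWAT library 1 by 89.3 CPM of Rela. The last of these held 5280 CPM of skeletal muscle markers, whose part in the Rela value was not tested. No group of BAT libraries was set apart for any member.

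The genotype effect differed between the tissues for 3 genes of the pathway lists by the interaction test, out of 27, 17 and 31 tested, a share no larger than the 4.86% of all genes. Ikbke had an effect larger by log2 1.99 in BAT. The genotype effect of Cxcl10 (-2.75) and of Sod2 (-1.0) was smaller in BAT than in iWAT, and that of Sod2 was log2 0.52 in iWAT and -0.50 in BAT. Between the tissues, BAT over iWAT, Cxcl10 was at log2 1.79 in Control and -0.96 in Ai-α4KO (edgeR adjusted p = 0.00232 and 0.0717). Cxcl10 did not pass in 15 of 20 fits with 1 library left out and in 4 of 10 other alternatives, and Ikbke and Sod2 each missed the threshold in 1 of those 10.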

How the results depend on the processing

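Deviations from the group means correlated at -0.451 to 0.244 between same-numbered libraries. Other pairs of libraries were not compared, so this cannot decide whether the replicate numbers pair them. With the numbers as a replicate block Rel in BAT missed the threshold (log2 1.08, adjusted p = 0.0102), so that 4 members rose there, 5 rose in iWAT, 0 passed the interaction, the Cxcl10 interaction was -2.57 (adjusted p = 0.0232) and the Nfkb2 interaction -0.10. Under the other alternatives of normalization, filter, test and unit, 4 or 5 members rose in each tissue and 0 fell, apart from 8 in iWAT and 7 in BAT without the fold threshold, and 6 in iWAT without Control iWAT libraries 1 and 4 or with the B cell score. With 1 library left out the count was 4 to 5 in each tissue. Rel missed the fold threshold with limma on log2(FPKM + 1), at 0.82 in iWAT and 0.63 in BAT. At an adjusted p below 0.05, 1 member passed the interaction. In Control, members lower in BAT were 0 with limma on log2(FPKM + 1) and 0 without Control iWAT libraries 1 and 4, where 1 was higher; with 1 library left out, 0 to 1 were higher and 1 to 2 lower. Without the fold threshold, upstream genes numbered 9 higher and 2 lower in iWAT, 15 and 2 in BAT, and 10 and 8 other inhibitors were higher, beside 21.5% of all genes higher and 18.8% lower in iWAT and 25.0% and 24.8% in BAT. Upstream genes higher in iWAT were 8 without Control iWAT libraries 1 and 4 and 9 with the B cell score. Other inhibitors higher were 5 in iWAT without TMM, with limma on log2(FPKM + 0.1) and with the B cell score, and 7 in BAT without TMM and with that limma fit. Target genes lower in iWAT were 2 at an adjusted p below 0.05 and with DESeq2, and 0 with limma on log2(FPKM + 1). In BAT they were 1 without TMM and with limma on log2(FPKM + 0.1), and 0 with limma on log2(FPKM + 1) and with the muscle score. With 1 library left out, upstream genes higher were 4 to 5 in iWAT and 8 to 9 in BAT, other inhibitors 2 to 4 and 3 to 5, and target genes 20 to 23 and 23 to 27. Without TMM the median of all genes was 0.13 in iWAT and 0.23 in BAT, against 0.01 and -0.03. The balance over all genes past both thresholds also moved. In iWAT 1656 were higher and 1559 lower, against 1466 and 1813 with upper-quartile normalization and 1684 and 1795 with DESeq2. In BAT 2614 were higher and 1910 lower, against 3251 and 1265 without TMM.

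Some differences that did not pass with all libraries changed sign. The interaction of Nfkb1 was 0.02 without TMM and -0.15 to 0.06 (0.02 for 2 of them) with 1 library left out. That of Nfkb2 was -0.07 and -0.06 in the limma fits with pseudocounts 1 and 0.1, -0.49 without Control iWAT libraries 1 and 4, and -0.35 to 0.18 (-0.07 and -0.09 among them) with 1 library left out. That of Rela was 0.08 without TMM, 0.04 with upper-quartile normalization, 0.02 without a filter and with DESeq2, 0.05 in both limma fits, and -0.09 to 0.12 (with 0.00, 0.01, 0.03 and 0.09 among them) with 1 library left out. That of Nfkbiz was 0.01 without TMM and -0.21 to 0.07 (0.01 and 0.05 among them) with 1 library left out. Between the Control tissues, Nfkb2 was -0.36 to 0.25 with 1 library left out, the highest without Control iWAT library 1, and 0.38 without 1 and 4, Rel -0.06 without TMM and -0.01 in both limma fits, Rela 0.01 without Control iWAT libraries 1 and 4, and Relb -0.16 without TMM, -0.03 with upper-quartile normalization, -0.06 in both limma fits and -0.01 to 0.36 with 1 library left out. Between the Ai-α4KO tissues Rel was -0.24 to 0.04 and Rela -0.16 to 0.02 with 1 library left out. The cause was not tested. Depth put no member near the floor of 3 counts, since the smallest member count was 35.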
